A study of Mus musculus with 8 samples.

Results

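The genes described here encode the hormones of the pancreatic islet, and 10 were chosen by name, of 18194 genes that the array reads with a probe set of their own or more: Ins1 and Ins2 (the 2 mouse insulins), Iapp, Gcg, Sst, Ppy, Pyy, Ghrl, Gast and Ucn3. All probe sets annotated to exactly 1 of them were taken, 12 of the 45101 probe sets of the array, and these read 9 of the 10 genes. No probe set in the table is annotated to Ins1 alone, so that its expression was not analysed here. Islet RNA was compared between male C57Bl/6J mice fed regular rodent chow (NC, 4 samples, replicates 1, 2, 4 and 5) and mice fed a diet with 45% of its energy as fat (HF, 4 samples, replicates 21, 22, 23 and 24). The diets began at weaning at 4 weeks of age and ran for 12 weeks in the sample labels, while the methods give a longer time. Mice of both diets carry the deletion in Nnt that occurs naturally in this substrain, and every array holds pooled islets of 2 mice. Islets were freed with collagenase, separated on a Ficoll gradient and picked by hand.

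An islet is a cluster of endocrine cells, most of which are beta cells in the mouse. Beta cells secrete insulin together with amylin (Iapp) and urocortin 3 (Ucn3), alpha cells secrete glucagon (Gcg), delta cells somatostatin (Sst) and PP cells pancreatic polypeptide (Ppy). Peptide YY (Pyy) is made in several of the rarer endocrine cells, ghrelin (Ghrl) in the scarce epsilon cells, and gastrin (Gast) in the fetal rather than the adult islet. All are cut from longer precursors in secretory granules. In bulk islets, fewer cells of a type and less RNA per cell cannot be told apart.

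Values are GCRMA intensities on the linear scale, which the authors had already adjusted for background and normalized across arrays, and their median over all probe sets was between 13.03 and 13.81 in all 8 samples. The probe sets tested were the brightest 56.8%, ranked by the third highest intensity of each over the 8 samples, and 11 of the 12 hormone probe sets were among them. The diets were set against each other with limma on log2 intensities. A probe set passed where its adjusted p was below 0.05 and the means differed at least 1.5-fold. Below, a log2 difference is HF minus NC, and SE is its standard error.

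None of the 11 tested hormone probe sets passed, against 3.7% of all probe sets tested, which were 0.644% higher and 3.06% lower in HF. Of these 11 hormone probe sets 4 had an unadjusted limma p under 0.05, those of Ins2, Ppy, Pyy and Ghrl. The test covered 56.8% of the 45101 probe sets on the array, and 5335 of those tested had an unadjusted limma p under 0.05. This 56.8% is the share of the array that was tested, not the share with such a p. Whether 4 of 11 exceeds the share among all tested probe sets was not tested. The largest difference was that of Ghrl, with an intensity in HF islets 0.307 of that in NC islets, just outside the threshold. Ppy and Pyy had lower intensities in every HF sample than in any NC sample, by 15.7% and 12.7% on the log2 means. Ins2 had higher intensities in every HF sample, by 7.59%, and so did 1 of 4 Iapp probe sets, while Gcg differed by 0.556%. Without a fold limit the count by limma was also 0, against 6.16% of all probe sets (2.03% higher and 4.13% lower).

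Brightness may limit what these probe sets can show. Of the 12 hormone probe sets 9 had a mean intensity of at least 15 on the log2 scale, taken here as near saturation, as had 102 probe sets of the whole array. None of these 102 passed with or without the fold limit, and their log2 fold changes lay between -0.25 and 0.17. The median SD within a diet was 0.05 on the log2 scale among them, beside 0.17 among tested probe sets under 100. Ins2, Iapp, Gcg, Sst, Ppy and Pyy had no probe set below this limit, and the same 9 probe sets lay over a limit of 20000. The least bright Iapp probe set, 1456004_x_at, and that of Sst were just over it, at means of 33630 and 33278. Only Ghrl, Gast and Ucn3 were read below both limits. Whether the 9 bright probe sets register a change in RNA in full was not tested, and their percentages are those of intensity.

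**Figure D1:**
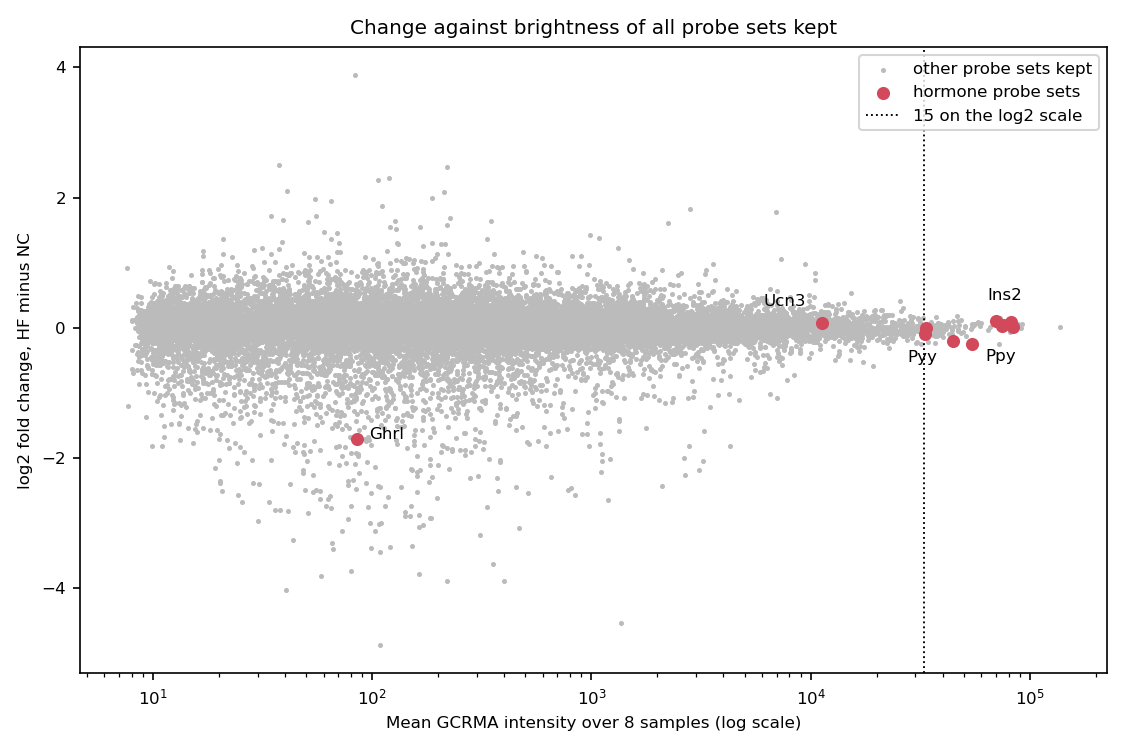
Log2 fold change (HF minus NC, y axis) against mean GCRMA intensity over the 8 samples (x axis, log scale) for every probe set tested, with the 11 tested hormone probe sets in red and a dotted line at an intensity of 15 on the log2 scale. The spread narrows towards the right, where 9 of the hormone probe sets lie, and Ghrl lies among the dim probe sets.

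Ins2 encodes the insulin that mice share with other mammals. Probe set 1422446_x_at carries the suffix that the maker gives to probe sets with probes matching other sequences, so that signal from the similar Ins1 cannot be told apart from it. Its intensity was 67032, 68077, 67529.7 and 67682 in NC replicates 1, 2, 4 and 5, and 74310.4, 72963, 71683 and 71916 in HF replicates 21, 22, 23 and 24. Thus the diets did not overlap, HF being the higher. The log2 difference was 0.11 (SE 0.04, 95% interval 0.01 to 0.20), with an adjusted p = 0.211 from limma and an exact two-sided permutation p of 0.0286, the smallest that 70 arrangements of 4 and 4 samples allow. This difference was 5th from the highest of the 102 probe sets near saturation.

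Iapp, the precursor of amylin, which beta cells release with insulin, was read by 4 probe sets. On the brightest, 1423510_at, the intensity was 77859.6, 80031, 79926 and 79709 in NC and 86876, 83460.0, 83148 and 86136 in HF. These groups did not overlap, at a log2 difference of 0.10 (SE 0.04, adjusted p = 0.268 from limma, exact permutation p = 0.0286). The groups overlapped on the other 3 probe sets, where the log2 difference was 0.04 for 1423509_a_at, 0.03 for 1437323_a_at and 0.00 for 1456004_x_at. The last of these was the least bright, with 33608 ± 77.0 (SD, n = 4) on NC against 33652 ± 386 (SD, n = 4) on HF, and its 95% interval ran from a decrease of 6.39% to an increase of 7.10%. It also carries the suffix for shared probes.

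Ucn3, a peptide of the corticotropin-releasing factor family that mature beta cells make, was the only beta cell hormone read below 20000. Its intensity was 11551, 11578, 10556 and 10138 in NC and 12825, 9955, 11265 and 12306.5 in HF. The highest sample and the lowest sample were both on HF. HF exceeded NC by 0.08 on the log2 scale (SE 0.09, 95% interval -0.13 to 0.29, limma adjusted p = 0.708). As a percentage the lower bound of the interval was -8.82%.

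**Figure D2:**
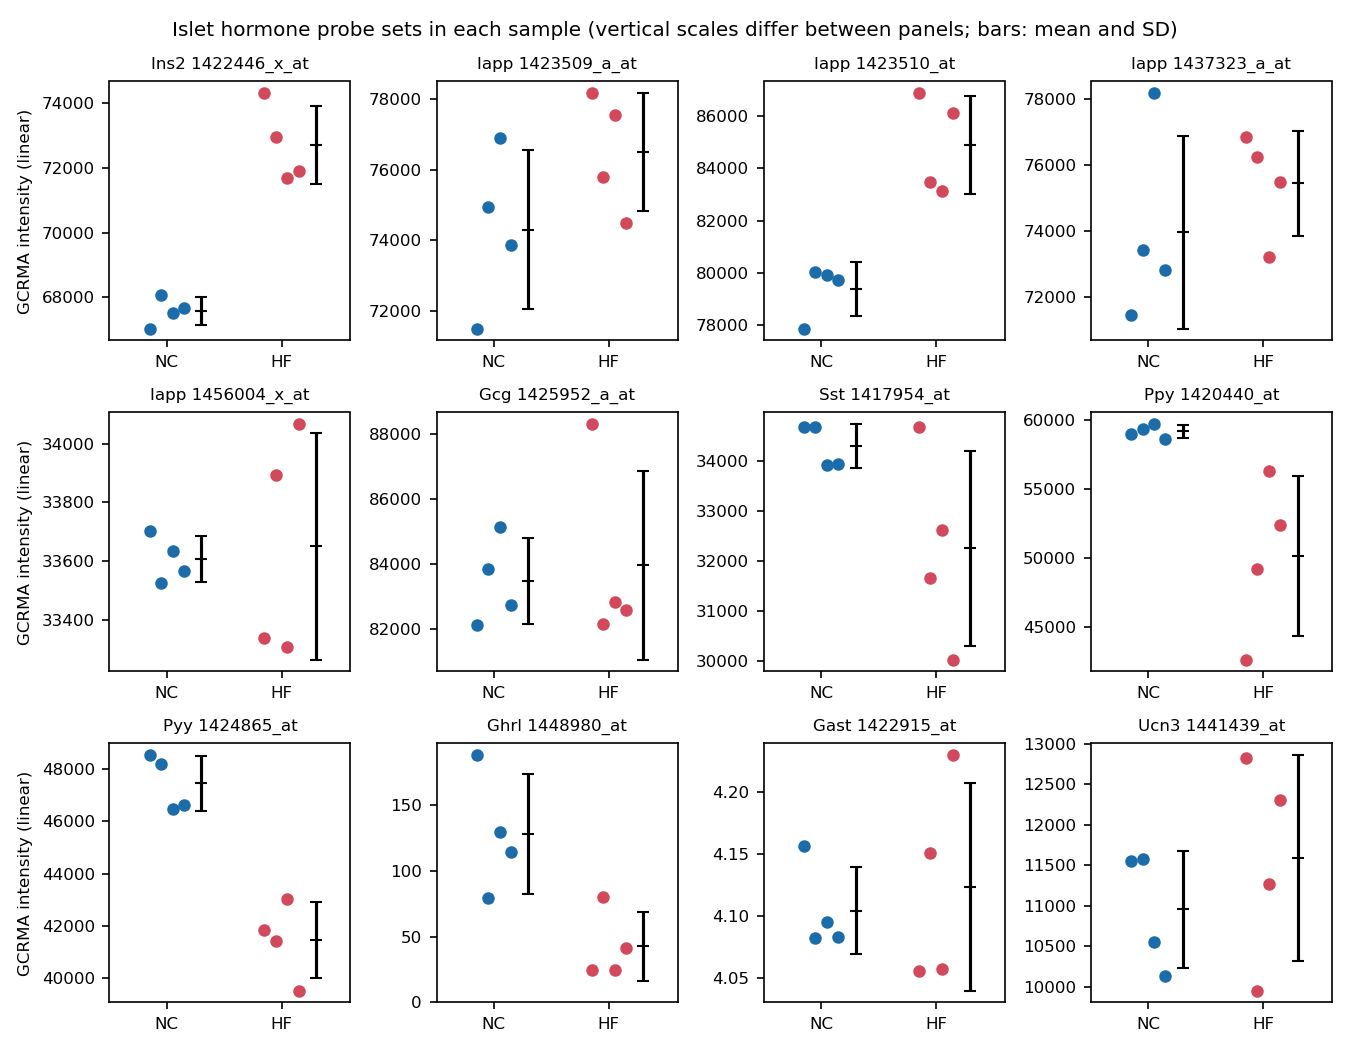
GCRMA intensity (linear y axis, different in each panel and not starting at 0 except for Ghrl) of the 12 hormone probe sets in each NC (blue) and HF (red) sample, with mean and SD as bars. The diets do not overlap for Ins2 and Iapp 1423510_at, where HF is higher, nor for Ppy and Pyy, where HF is lower.

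Gcg, the precursor of glucagon and glucagon-like peptide 1, had the brightest hormone probe set. Its intensity was 82128, 83851, 85141 and 82745 in NC and 88297, 82143, 82814 and 82582.5 in HF. HF replicate 21 was the highest, and the other 3 HF samples lay within the NC range. The log2 difference was 0.01 (SE 0.05, 95% interval -0.10 to 0.12, limma adjusted p = 0.956), and it was -0.02 without HF replicate 21.

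Sst, which acts on neighbouring alpha and beta cells to restrain secretion, had 34675, 34685, 33915 and 33939 in NC and 34693, 31663, 32629.9 and 30024 in HF. The samples HF 22, 23 and 24 lay below all NC samples and HF 21 above them. HF differed from NC by -0.09 on the log2 scale (SE 0.06, 95% interval -0.22 to 0.04, limma adjusted p = 0.424), and it was -0.13 without HF replicate 21 and -0.06 without HF replicate 24.

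Ppy and Pyy belong to the family of neuropeptide Y. As hormones, pancreatic polypeptide and peptide YY restrain feeding and gut or pancreatic secretion. Their genes are next to each other on chromosome 11 with no protein-coding gene between them. Ppy had 58964, 59377, 59686 and 58643 in NC and 42638, 49194, 56317 and 52391.5 in HF. All HF samples were lower, and they were spread more widely than the NC samples, with an SD of 11.5% of the mean against 0.774%. For Ppy the log2 difference was -0.25 (SE 0.08, 95% interval -0.44 to -0.05, limma adjusted p = 0.143), the lowest of the 102 probe sets near saturation. It ranged from -0.30 without HF replicate 23 to -0.17 without HF replicate 21. Pyy had 48543, 48217, 46492 and 46629.6 in NC and 41836, 41397, 43036.5 and 39504 in HF. Here too the groups did not overlap, and the spread within each diet was small. For Pyy the log2 difference was -0.20 (SE 0.05, 95% interval -0.31 to -0.08, limma adjusted p = 0.0580). The exact permutation p was 0.0286 for both genes. For the nearest measured neighbours beyond them, Mpp2 and Tmem101, the log2 differences were -0.25 (adjusted p = 0.565) and -0.00 (adjusted p = 0.995).

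Groups that do not overlap were common on this array, at 14.7% of all probe sets tested (6.81% with HF above and 7.84% with HF below NC), and 19.6% of the 102 near saturation. Of the 11 tested hormone probe sets 4 were of this kind, which were those of Ins2, Ppy and Pyy and 1 of Iapp.

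Ghrl encodes ghrelin, a peptide that raises appetite and restrains insulin secretion, and in islets it marks epsilon cells. Its probe set 1448980_at was dim, with 188, 79.4, 129 and 115 in NC and 24.3, 80.2, 24.5 and 41.2 in HF. HF replicate 22 lay just above the lowest NC sample, and the other 3 HF samples lay below all NC samples. The mean on NC was 128 ± 45.3 (SD, n = 4) and that on HF 42.5 ± 26.3 (SD, n = 4). On the log2 scale HF differed by -1.70 (SE 0.42, 95% interval -2.66 to -0.74), with an adjusted p = 0.0537 from limma and an exact permutation p of 0.0571. Without HF replicate 22 it was -2.07 with an adjusted p = 0.0148, which passes, and without any other sample it did not pass (log2 difference -1.91 to -1.50, adjusted p between 0.0666 and 0.133). It also passed with a stricter filter on dim probe sets (adjusted p = 0.0358), and it did not with no filter (adjusted p = 0.119). The enzyme that acylates ghrelin, Mboat4, and the ghrelin receptor Ghsr were both too dim to be tested, with means of 6.29 and 6.33 in NC and 6.30 and 6.42 in HF.

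Gast was read at 4.16, 4.08, 4.10 and 4.08 in NC and 4.06, 4.15, 4.06 and 4.23 in HF, under the lowest level kept for the test (8.82). In the comparison of all probe sets without that filter its log2 difference was 0.01 and its exact permutation p 0.714. At this level an absence of gastrin RNA was not shown, and a difference could not be detected.

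**Figure D3:**
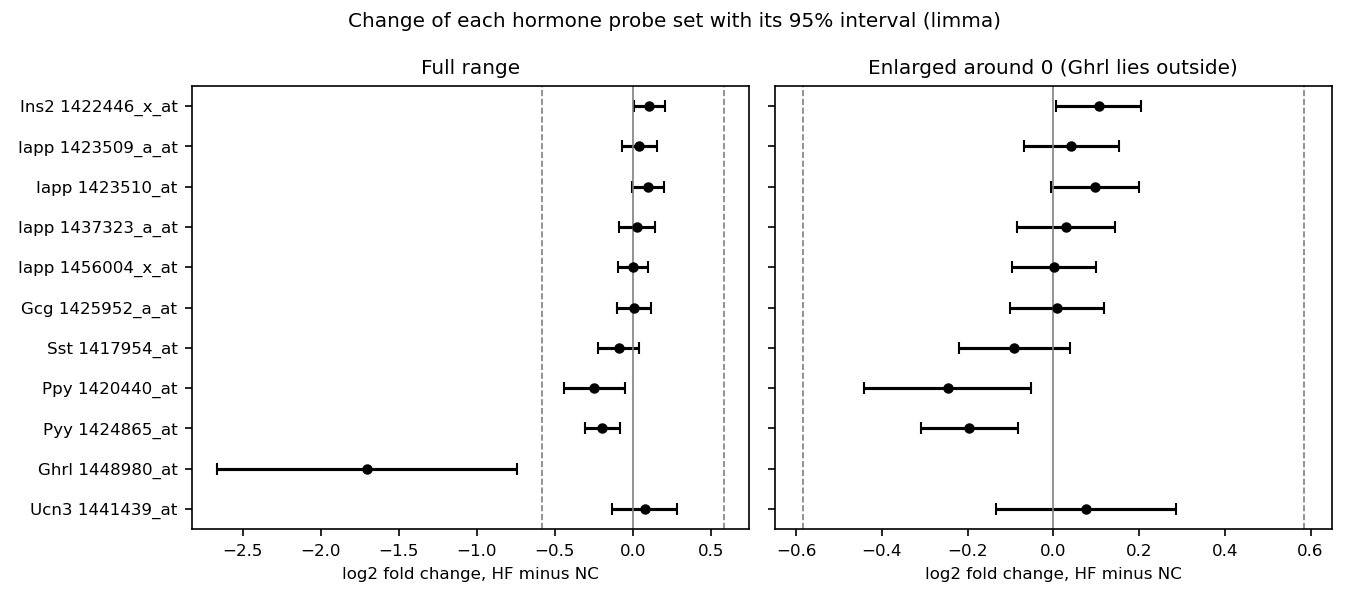
Log2 fold change (HF minus NC, x axis) of the 11 tested hormone probe sets with 95% intervals from limma, over the full range (left) and enlarged (right). Between the dashed lines the means differ less than 1.5-fold, and the points of all but Ghrl lie there.

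Since the bright probe sets varied little, a test that ties the spread to intensity treats them differently. With limma's intensity trend, a robust prior and no fold limit, an alternative added after the values were seen, 6.8% of all probe sets passed (2.37% higher, 4.43% lower) and 7.84% of the 102 near saturation. Of the 11 hormone probe sets 4 then passed. Ins2 (adjusted p = 0.0179) and Iapp 1423510_at (adjusted p = 0.0391) were higher, and Pyy (adjusted p = 0.00936) and Ghrl (adjusted p = 0.0451) were lower. Over all settings tried the adjusted p ran from 0.0179 to 0.565 for Ins2, from 0.0391 to 0.571 for that Iapp probe set, from 0.00936 to 0.152 for Pyy and from 0.0148 to 0.134 for Ghrl. For Pyy and Ins2 it was 0.0250 and 0.0319 by limma with no filter, and 0.0328 and 0.0190 by the methods' t-test. Pyy alone was under 0.05 by limma with an offset (0.0277), sample weights (0.0423) and by gene (0.0464). Neither was with the stricter filter, other scalings or 1 sample left out. All these differences lay under the fold limit. Ppy did not pass (adjusted p = 0.0917), nor did Sst, Gcg, Ucn3 or the other Iapp probe sets.

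The sequence before the start of the gene is shown for the neighbours Ppy and Pyy, for Ghrl, which had the largest difference, for Sst, and for the beta cell genes Ins1 and Iapp. None of these genes passed the test, and Ins1 and Gast had no tested probe set, so that the motifs below are set against no diet response. Mouse promoter sequences of RefSeq (GRCm38.p6) covered 9 of the 10 genes with 13 windows, several starts being listed for Pyy and Ghrl. Ins2 had no window. Each window holds the 250 bases before the start, written in the direction of the gene. Capitals mark TAAT, the core that homeodomain factors such as Pdx1 bind, and CANNTG, the E box that factors such as Neurod1 bind, on both strands, and no TAAT overlapped a CANNTG. Of the 2 Pyy windows and the 4 Ghrl windows, those just outside the annotated span of the gene are shown.

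Ppy, chr11:102101320-102101569, minus strand: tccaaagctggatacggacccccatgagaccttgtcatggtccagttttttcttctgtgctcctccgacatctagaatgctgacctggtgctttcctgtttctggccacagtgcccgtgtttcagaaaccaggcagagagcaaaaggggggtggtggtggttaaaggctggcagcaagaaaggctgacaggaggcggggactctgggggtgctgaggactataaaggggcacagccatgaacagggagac
Pyy, chr11:102107833-102108082, minus strand: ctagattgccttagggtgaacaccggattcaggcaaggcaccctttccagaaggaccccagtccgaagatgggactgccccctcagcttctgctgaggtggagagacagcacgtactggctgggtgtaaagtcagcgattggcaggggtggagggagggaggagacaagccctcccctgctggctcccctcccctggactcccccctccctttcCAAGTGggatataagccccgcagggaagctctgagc
Ghrl, chr6:113719912-113720161, minus strand: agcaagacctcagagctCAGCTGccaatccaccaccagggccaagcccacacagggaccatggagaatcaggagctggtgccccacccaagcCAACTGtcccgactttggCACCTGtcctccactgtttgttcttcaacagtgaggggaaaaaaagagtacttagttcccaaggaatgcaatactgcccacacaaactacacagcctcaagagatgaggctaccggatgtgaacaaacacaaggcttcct
Sst, chr16:23890845-23891094, minus strand: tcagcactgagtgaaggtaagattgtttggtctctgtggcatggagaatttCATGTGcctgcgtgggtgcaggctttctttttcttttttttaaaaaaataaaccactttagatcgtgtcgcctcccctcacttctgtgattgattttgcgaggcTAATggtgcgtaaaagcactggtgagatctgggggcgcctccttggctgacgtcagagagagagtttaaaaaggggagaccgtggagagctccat
Ins1, chr19:52264047-52264296, plus strand: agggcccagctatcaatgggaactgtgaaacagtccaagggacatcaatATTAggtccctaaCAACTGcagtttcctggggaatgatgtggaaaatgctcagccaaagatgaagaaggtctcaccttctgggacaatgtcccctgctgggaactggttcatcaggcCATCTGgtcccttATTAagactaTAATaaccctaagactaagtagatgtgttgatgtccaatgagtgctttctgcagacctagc
Iapp, chr6:142298175-142298424, plus strand: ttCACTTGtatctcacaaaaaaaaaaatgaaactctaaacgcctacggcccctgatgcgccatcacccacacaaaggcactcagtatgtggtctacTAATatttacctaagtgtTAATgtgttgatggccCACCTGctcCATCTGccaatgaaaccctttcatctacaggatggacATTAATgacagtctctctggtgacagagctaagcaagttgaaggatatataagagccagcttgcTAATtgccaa

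TAAT was found 5 times in the window of Iapp, 3 times in that of Ins1, 2 times each in those of Gcg and Ucn3 and 1 time each in those of Sst and Gast, and not in those of Ppy, Pyy and Ghrl. It occurs in 54.9% of all 32851 windows of this length. CANNTG occurs in 66.2% of them and was absent from Ppy. In Ghrl it was found 3 times in the window shown, 5 times in a window before a start inside the gene and not in the remaining 2, which overlap each other. The Sst window held TGACGTCA, the cyclic AMP response element, which occurs in 1.55% of all windows. TATAAA, the TATA box, was searched on both strands, and 12.4% of all windows hold it. In the direction of the gene it began 31 bases before the start of Ppy and 24 before that of Gcg. The matches 28 bases before the start of Gast and 72 before that of Gcg lay on the opposite strand. These matches describe letters in the windows and do not show binding.

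The samples also vary within a diet, and that variation was described with the mean of each diet subtracted over all 8 samples. HF replicate 21 had the lowest Ppy and the highest Ins2 and Gcg, and the within-diet correlation of Ppy with Ins2 was -0.91 and with Gcg -0.73. Ins2 and Gcg had a correlation of 0.77. All 3 are near saturation and share the arrays and their scaling. Ucn3 and Ghrl are read below that range. The genes most like Ucn3 were Suclg2 (0.99), Abhd17c (0.98) and Emid1 (0.98), and those most like Ghrl were Tmem38b (0.97), Tlcd5 (0.97) and Tent5a (0.97). These are the highest values among 12299 genes over few samples and are given as a description.

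Of 23 listed genes for receptors of these hormones and their partners 13 were bright enough to be tested, of which 3 fell, none rose and 10 did not pass. By gene, with 1 probe set each, 4.73% of all genes tested passed (0.447% rose and 4.28% fell). Sstr2, a somatostatin receptor found on alpha cells, fell from 109 ± 28.6 (SD, n = 4) on NC to 45.9 ± 7.99 (SD, n = 4) on HF. Its log2 difference was -1.22 (SE 0.21, limma adjusted p = 0.0147). The other genes that fell were Ramp2 (log2 difference -0.65, adjusted p = 0.00679) and Ramp3 (-0.66, adjusted p = 0.0176), partners of the calcitonin family of receptors that also serve vessels. The call of Ramp3 ended without NC replicate 2 and without HF replicate 23. Among the receptors that did not pass, Glp1r had a log2 difference of 0.32 (adjusted p = 0.144), Gcgr of 0.13, Insr of 0.06 and Gipr of 0.03. Sstr3 had -0.21 on 1 probe set and 0.24 on the other. Receptors of Ppy and Pyy were dim, with Npy4r at 3.02 in both diets and Npy2r at 8.66 in NC and 8.72 in HF. Crhr2, the receptor of urocortin 3, was dim too, with a mean of 14.2 in HF and a log2 difference of -0.08. The median log2 difference of the measured receptors was -0.08, beside 0.00 for all genes.

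**Figure D4:**
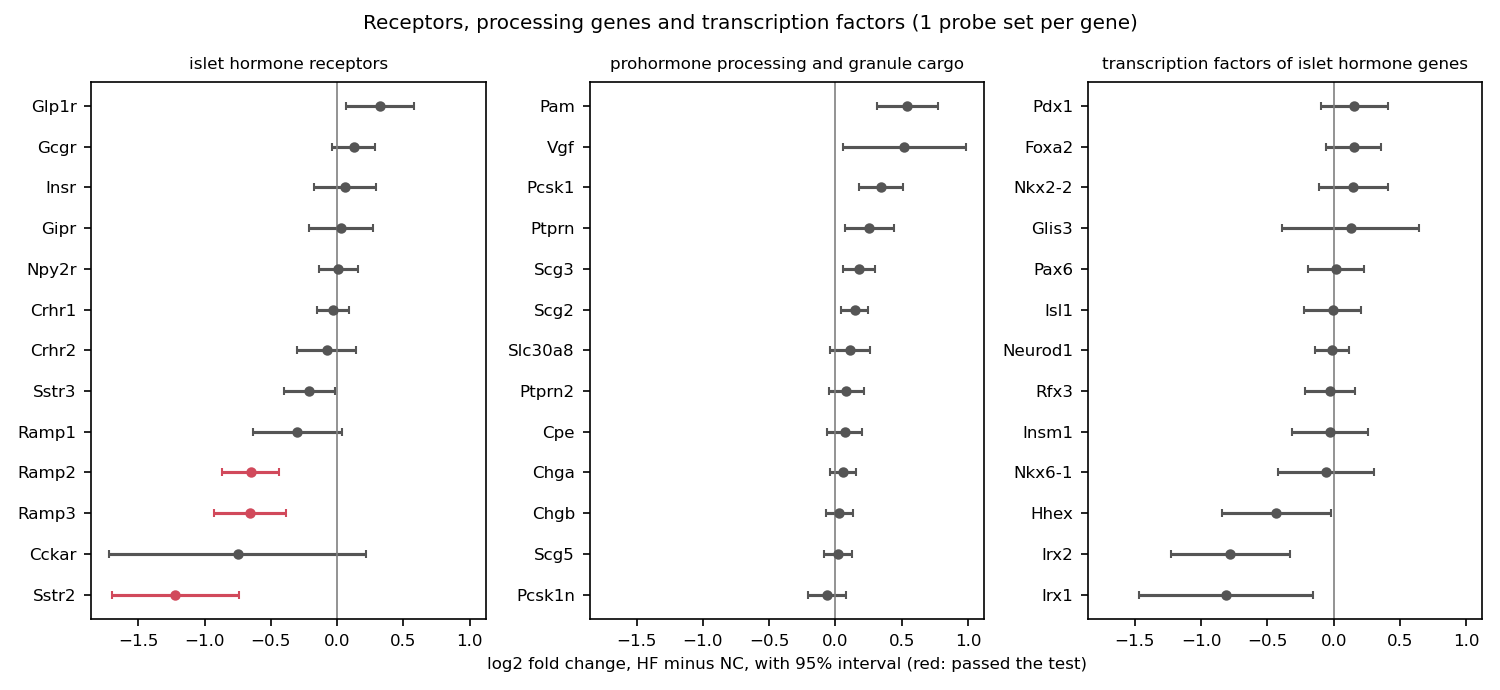
Log2 fold change (HF minus NC, x axis) with 95% intervals of the measured hormone receptors, prohormone processing and granule genes, and transcription factors of hormone genes, 1 probe set per gene. The 3 genes that passed, in red, are the receptor genes Sstr2, Ramp2 and Ramp3.

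Of 13 measured genes that cut and finish the hormones or are packed with them none passed, and their median log2 difference was 0.11. Pcsk1, the convertase that cuts proinsulin, had 7349 ± 281 (SD, n = 4) on NC and 9340.2 ± 780 (SD, n = 4) on HF. Its log2 difference of 0.34 (limma adjusted p = 0.0312) is under the fold limit. The same held for Pam, which amidates peptides such as Iapp, with 0.54 (adjusted p = 0.0183). Among the brightest, Scg2 had 0.15 (adjusted p = 0.0975), Cpe 0.07 and Chga 0.06. Of 13 measured transcription factors of hormone genes none passed (median -0.01). Pdx1 had a log2 difference of 0.16, Insm1 of -0.03, Neurod1 of -0.01 and Isl1 of -0.01, while Irx2, a factor of alpha cells, had -0.78 (adjusted p = 0.0574 from limma). Of 12 measured genes that mark immature beta cells or are normally silent in them, 1 rose, Aldh1a3 (log2 difference 2.27, adjusted p = 0.0205), and 9 fell. Among these were Ldha, a lactate dehydrogenase subunit (-1.23, adjusted p = 0.00239), and Npy, of the family of Ppy and Pyy (-2.46, adjusted p = 0.0106). Leaving out any 1 of NC 1, NC 4, HF 23 and HF 24 ended the call of Aldh1a3, and without 1 sample 6 to 8 genes fell. Those that fell also include Pdgfra, Cxcl12 and Igfbp4, which connective tissue expresses, at log2 differences of -2.14, -1.42 and -2.21. The call of Pdgfra ended without any 1 of NC 1, NC 2, NC 5, HF 21, HF 23 and HF 24, and with no filter (adjusted p = 0.0775).

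Markers of other cells moved with diet in the same samples. All 8 fibroblast markers fell, their summed intensity being 13092 to 18816 in NC and 2594 to 4642 in HF, with Thy1, the lowest of them in HF, at 21.6. Of 8 measured immune markers 5 fell (2974 to 4351 in NC, 1051 to 1624 in HF), as did 4 of 5 of smooth muscle and pericytes (10653 to 11823 in NC, 7144 to 8466 in HF), 3 of 4 of Schwann cells (291 to 386 in NC, 87.0 to 127 in HF) and 1 of 8 of endothelial cells (16579 to 19124 in NC, 12743 to 14289.8 in HF). None of 10 beta cell markers passed (193891 to 198228 in NC, 193948 to 208805 in HF), nor any of 10 acinar, 7 duct and 3 delta and PP cell markers. The acinar markers had the highest sum of all the cell types, 357838 to 468893 in NC and 383491 to 450163 in HF. Those of duct cells summed to 11693 to 14257 in NC and 11095 to 13775 in HF. The delta and PP markers summed to 5944 to 7392 in NC and 3797 to 6252 in HF, most of it from Rbp4, with a log2 difference of -0.45 (adjusted p = 0.156). Of 6 alpha cell markers Sstr2 alone passed (96755 to 98633 in NC, 92924 to 100109 in HF, most of it from Ttr). Their median log2 difference was -0.53, beside 0.00 for all genes. Among those that did not pass it was -0.81 for Irx1, -0.78 for Irx2, -0.29 for Slc7a2, -0.23 for Slc38a5 and 0.00 for Ttr. Ttr, with means of 90606 in NC and 90738 in HF, is near saturation. So are the beta cell markers G6pc2, Ero1b and Cltrn, which may limit what the beta and alpha cell sums can show. With the samples scaled to equal beta cell markers, the log2 difference of Ghrl was -1.72 (limma adjusted p = 0.0518) and that of Pyy -0.21 (limma adjusted p = 0.152), and neither passed. What part the other cells have in the hormone values was not tested.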

How the data were processed

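Islet RNA of 4 NC and 4 HF samples was hybridised to mouse 430v2 expression arrays, with 1 array per sample. Per the labels, images were processed in ArrayAssist Lite 3.4. The values the authors deposited are GCRMA intensity values that were not on a log scale and ran from 1.33 to 142713. Groups came from the sample titles. The values were taken to log2 with no other normalization. The study's test, SAM, was not run, and limma 3.58.1 in R 4.3.3 (lmFit and eBayes, Benjamini-Hochberg over all tested probe sets) took its place. In place of present calls, as many probe sets as the study kept were taken by the third highest intensity, the lowest of which was 8.82. Of 45101 probe sets 34958 are annotated to 1 gene. Genes in lists were represented by their kept probe set with the highest mean, which covered 112 of 144 listed genes. Exact two-sided permutation tests used the 70 arrangements of the samples. Correlations used log2 values with the mean of each diet subtracted.

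The members and the gene lists were chosen with earlier results of these data known. Every hormone probe set is named. From each list the text may name up to 6 genes that passed, by smallest p, and 3 others by highest mean, with any receptor. Pcsk1, Pam, Irx1, Irx2, Pdx1, Aldh1a3, Pdgfra, Thy1, Rbp4, Vgf, Mpp2 and Tmem101 fall outside this rule and were chosen after their values were seen. Besides, 21 alternatives were run, namely other filters, scalings, an offset, variance models, sample weights, the methods' t-test, no fold limit, testing by gene and leaving out each sample. The number of arrays limits the precision.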

Additional observations from a re-analysis of the deposited data

Results flagged for a closer look

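In groups of 4 samples, 2 hormone values stood far from the other 3 of their diet by Dixon's criterion, among 24 groups examined, of which chance alone marks about 1 in 20. NC replicate 1 had the lowest intensity of Iapp on 1423510_at, 77859.6, with the nearest NC sample at 79709. HF replicate 21 had the highest intensity of Gcg, 88296.8, with the nearest HF sample at 82814. Both probe sets are near saturation, and neither value changes a call.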

How the results depend on the processing

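None of the hormone probe sets passed in the comparison as reported. The number lower in HF was 1 with the stricter filter, 1 with the intensity trend and robust prior, 1 with sample weights, 1 with the methods' t-test without adjustment and 1 when tested by gene, and 0 to 1 without 1 sample. In each of these settings the probe set was that of Ghrl, and among single samples only leaving out HF replicate 22 brought the call. With the intensity trend and no fold limit together, added after the values were seen, 2 were lower and 2 higher. With the methods' t-test after adjustment 1 receptor gene was lower (Ramp2), no immature gene was higher (0) and 5 were lower. With no filter no immature gene was higher (0). Leaving out 1 sample gave 0 to 1 higher immature gene. The processing genes that were higher numbered 1 after quantile normalization again (Pam), 2 with no fold limit (Pcsk1 and Pam), 4 with the intensity trend and no fold limit, and 0 to 1 without 1 sample (Pam without HF replicate 22, Vgf without HF replicate 23). The transcription factors that were lower numbered 1 with the stricter filter, 1 with scaling on beta cell markers, 1 when tested by gene (each time Irx2), 2 with the methods' t-test without adjustment (Irx1 and Irx2), and 0 to 1 without 1 sample (Irx2 without HF replicate 21). The cause of these differences was not tested. The direction of Ghrl, Ppy, Pyy, Sst, Ins2 and Ucn3 was the same in every setting, and that of Gcg and of the 2 Iapp probe sets 1437323_a_at and 1456004_x_at, whose differences are nearest to 0, was not. No paired analysis was possible because the replicate numbers of the diets differ. The near saturation of 9 hormone probe sets may limit what can be read from them, which was not tested.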
